A study of Homo sapiens with 9 samples.

Results

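The genes described here encode the human heat shock proteins and the DNAJ co-chaperones, followed in TC32 cells, an established line from an Ewing sarcoma, a tumour of bone and soft tissue of children and young adults. Members were chosen by gene symbol alone: the HSPA, HSPB, HSPD1, HSPE1 and HSPH1 genes, the 3 HSP90 genes HSP90AA1, HSP90AB1 and HSP90B1, and the numbered DNAJA, DNAJB and DNAJC genes. This gave 72 of the 58233 genes in the deposited tables. Of these, 64 passed the filter on low counts and were tested among 17880 genes.

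RNA was sequenced from 9 libraries in 3 groups of 3. Cells called SB-505124 cells received Wnt3a, a ligand that activates the canonical Wnt/β-catenin pathway, for 4 h and then SB-505124, a kinase inhibitor of type I receptors for TGF-β and activin, for 24 h. Wnt3a cells received the ligand for 4 h and then DMSO, the solvent, for 24 h. Whether Wnt3a stayed in the medium during the later 24 h is not stated in the labels. Vehicle cells received PBS for 4 h and then DMSO for 24 h. All cells were the same line grown in RPMI with fetal bovine serum, and no group received SB-505124 without Wnt3a, so an action of the inhibitor alone and one that needs Wnt3a cannot be told apart. Whether replicates were separate cultures is not stated in the labels, so a p-value reflects only how far libraries of a group varied, which may be technical variation.

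Heat shock proteins are molecular chaperones that bind unfolded or partly folded proteins. HSP70 proteins hold and release their clients in cycles of ATP hydrolysis, J proteins of the DNAJ families bring clients to HSP70 and stimulate that hydrolysis, and HSP110 proteins exchange the bound nucleotide. HSP90 acts later on clients such as kinases and hormone receptors, small heat shock proteins hold aggregation-prone proteins without ATP, and HSP60 with HSP10 forms the folding chamber of mitochondria. Heat shock factor 1 drives the inducible genes of the cytosol, whereas the unfolded protein response drives those of the endoplasmic reticulum (ER). Many tumour cells hold high levels of both kinds of chaperone.

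Members together made up 0.847% of the transcript total in TPM, the authors' length-scaled unit, in vehicle cells. In that group 57 members averaged at least 1 TPM, 44 at least 10 TPM and 15 at least 100 TPM. HSPA8, the constitutive HSP70 of the cytosol, led with 2088 ± 268 TPM in SB-505124 cells, 2223 ± 154 TPM in Wnt3a cells and 2004 ± 115 TPM in vehicle cells. The cytosolic HSP90 genes followed. HSP90AB1, the constitutive form, stood at 1026 ± 45.4 TPM in SB-505124 cells, 896 ± 35.5 TPM in Wnt3a cells and 896 ± 54.9 TPM in vehicle cells, and HSP90AA1, the stress-inducible form, at 563 ± 138 TPM in SB-505124 cells, 804 ± 56.7 TPM in Wnt3a cells and 702 ± 27.9 TPM in vehicle cells. In vehicle cells HSP90AA1 and HSPB1, which encodes HSP27, did not differ beyond their spread, since HSPB1 had 413 ± 84.4 TPM in SB-505124 cells, 734 ± 16 TPM in Wnt3a cells and 688 ± 99.2 TPM in vehicle cells. The same held in vehicle cells for HSP90B1 (GRP94 of the ER) and HSPD1 (HSP60), at 523 ± 41.9 and 504 ± 19.8 TPM, and for HSPH1 and HSPE1 (HSP10), at 384 ± 42.7 and 376 ± 35.3 TPM. DNAJA1 was the J protein gene with the highest level, at 87.9 ± 20.6 TPM in SB-505124 cells, 250.3 ± 4.37 TPM in Wnt3a cells and 222 ± 9.62 TPM in vehicle cells.

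**Figure D1:**
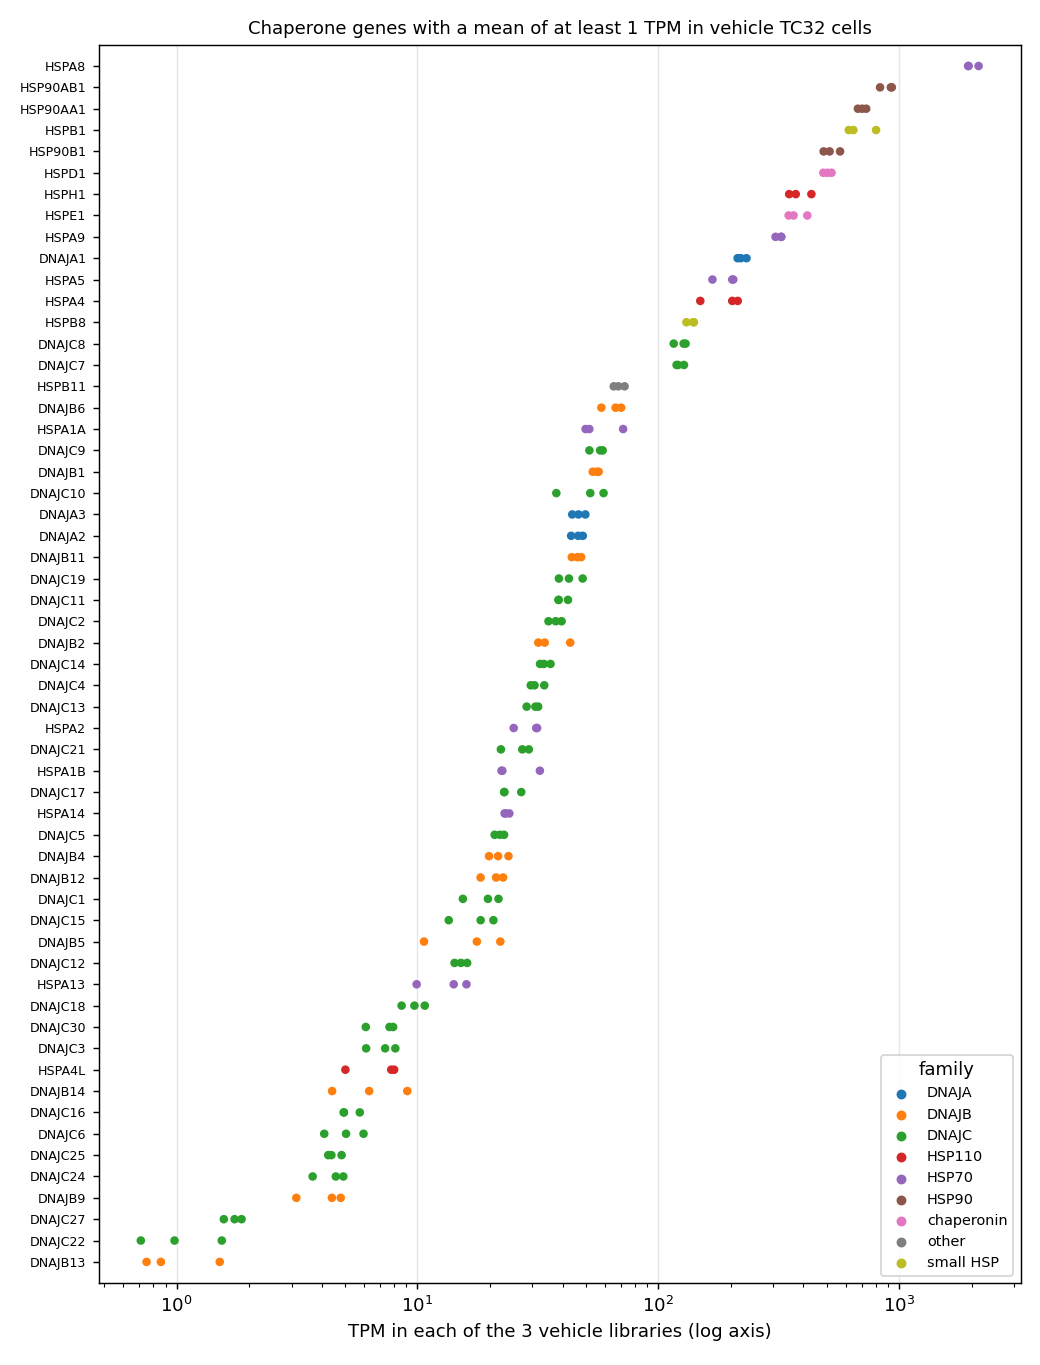
Level of each member with a mean of at least 1 TPM in vehicle cells, on a log axis in TPM, with 1 point per vehicle library and colours for the protein families. HSPA8 stands highest, at 2004 ± 115 TPM, and the highest J protein gene, DNAJA1, stands at 222 ± 9.62 TPM.

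The summed level of all 72 members was 6744, 7916 and 7563 TPM in SB-505124 cells, 9388, 8830 and 8914 TPM in Wnt3a cells and 8464, 8548 and 8387 TPM in vehicle cells. Every SB-505124 library lay below every library of both other groups. Without HSPA8 the sums were 5320 ± 341 TPM in SB-505124 cells, 6821 ± 149 TPM in Wnt3a cells and 6463 ± 61.5 TPM in vehicle cells. The 8 genes of mitochondrial chaperones summed to 894 ± 90.0 TPM in SB-505124 cells, 1362 ± 36.0 TPM in Wnt3a cells and 1352 ± 25.3 TPM in vehicle cells. The 13 genes of ER chaperones summed to 937 ± 92.5 TPM in SB-505124 cells, 983 ± 86.7 TPM in Wnt3a cells and 930 ± 79.0 TPM in vehicle cells, with overlapping spreads. TPM are shares of a fixed total, so a sum also moves with all other genes.

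Libraries held totals of 28844348 to 37540072 expected counts in SB-505124 cells, 36903919 to 42976799 in Wnt3a cells and 34348339 to 38637007 in vehicle cells. With 1 count or more there were 23196 to 23250 genes in SB-505124 cells, 25662 to 26802 in Wnt3a cells and 25128 to 25762 in vehicle cells. The TMM factors that scale library size were 0.876 to 0.914 in SB-505124 cells and 1.02 to 1.1 in the others. Replicate 1 of the SB-505124 cells stood apart on the second principal component, which held 14.7% of the variance, and values without it stand beside the member calls it decides. Values per library are TMM-scaled counts per 1e+06 counts (CPM) with SD of 3 libraries. AXIN2, a Wnt target, averaged 31.1 ± 4.1 CPM in SB-505124 cells, 20.1 ± 2.82 CPM in Wnt3a cells and 3.29 ± 0.326 CPM in vehicle cells (log2 fold change of Wnt3a over vehicle 2.61, edgeR adjusted p = 0.000119). PMEPA1, a TGF-β target, averaged 14 ± 0.545 CPM in SB-505124 cells, 48.3 ± 6.66 CPM in Wnt3a cells and 47.2 ± 2.52 CPM in vehicle cells (SB-505124 over Wnt3a -1.79, edgeR adjusted p = 4.75e-06), whereas SMAD7 did not pass the test (-0.27, edgeR adjusted p = 0.157). All 9 Ewing sarcoma markers were tested, with 0 higher and 5 lower in SB-505124 than in Wnt3a cells. Over all tested genes 24.5% were higher and 25.9% lower in that comparison. Their summed CPM was 2542 to 3157 in SB-505124 cells, 3404 to 4426 in Wnt3a cells and 3935 to 4739 in vehicle cells. For other cell types, 9 fibroblast markers summed to 311 to 328 CPM in SB-505124 cells, 473 to 823 CPM in Wnt3a cells and 394 to 635 CPM in vehicle cells. The 5 leukocyte markers summed to 5.11 to 8.94 CPM in SB-505124 cells, 1.32 to 2.13 CPM in Wnt3a cells and 1.66 to 3.46 CPM in vehicle cells, mostly CD68 (SB-505124 over Wnt3a 2.44, edgeR adjusted p = 0.000788), with CD3E at 0 in every library. The 5 endothelial markers stayed under 2.85 CPM in sum and the 6 epithelial markers under 2.2 CPM in every library. The part of these marker shifts and of the lower number of detected genes in the member results was not tested. In bulk RNA, fewer cells of a kind and less RNA per cell cannot be told apart.

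Wnt3a against vehicle asks what the ligand did to the chaperone genes. None of the 64 tested members passed the test in either direction (edgeR quasi-likelihood F test, p adjusted by Benjamini and Hochberg over all tested genes, threshold 0.05). Over all genes, 0.419% were called, 71 higher (0.397%) and 4 lower (0.0224%). At an unadjusted p under 0.05 there were 3 members, and DESeq2 also called 0. The count of 3 is not comparable with the shares over all genes above, which are for adjusted p. The median log2 fold change of the members was 0.00, against 0.01 over all tested genes. The CPM of the libraries did not overlap for 10 members higher and 3 members lower in Wnt3a cells, against 17.5% of all genes in either direction. HSPA2, an HSP70 needed in male germ cells of mice, had the highest log2 fold change of the 64. It had 110.0, 78.3 and 107 CPM in Wnt3a cells and 61.6, 49.2 and 60.7 CPM in vehicle cells, without overlap, at a log2 fold change of 0.79 (SE 0.24, adjusted p in edgeR = 0.348). Its adjusted p was 0.00363 when every gene with at least 1 count was kept. HSPA8, HSP90AA1 and HSP90AB1 had log2 fold changes of 0.10, 0.15 and -0.08, with edgeR adjusted p values of 0.907, 0.875 and 0.909. HSPA1A and DNAJB9, whose levels stood apart in SB-505124 cells, had 0.16 and 0.14 (edgeR adjusted p = 0.906 and 0.917).

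SB-505124 with Wnt3a against Wnt3a asks what adding SB-505124 did in Wnt3a-exposed cells. No other inhibitor was used, so blocking of the TGF-β receptor kinases and other actions of the compound cannot be told apart. Of the 64 tested members, 21 rose, 19 fell and 24 did not pass the test. That is 62.5% called, against 50.4% over all genes, of which 24.5% were higher and 25.9% lower. CPM of the libraries did not overlap for 23 members higher and 20 lower, against 58.1% of all genes. By at least 2-fold, 6 members rose and 10 fell. These 2 counts are given without the share of all genes at that cut, so no lean of the members is read from them. The median log2 fold change was -0.09 for the members and -0.06 for all tested genes. Scaling to library totals instead of TMM moved the median of all genes to -0.31 and that of the members to -0.34, with 16 members higher and 30 lower, while 15.8% of all genes were higher and 35.9% lower. On log2(TPM + 1) with limma the members split into 12 higher and 29 lower, against 12.8% higher and 35.5% lower over all genes. Without replicate 1 of the SB-505124 cells, 21 rose and 20 fell of 65 tested. In all 19 alternatives 28 of the 40 calls held, 12 higher and 16 lower.

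By compartment, the 13 ER members stood at 8 higher and 2 lower with a median of 0.52, and the 8 mitochondrial members at 0 higher and 5 lower with a median of -0.58. The 29 tested members of the cytosol divided into 8 higher and 7 lower, with a median of -0.21. On library totals the ER counts were 6 higher and 4 lower with a median of 0.27, the mitochondrial counts 0 and 7, and those of the cytosol 5 and 13. On log2(TPM + 1) they were 5 and 3 for the ER, 0 and 7 for mitochondria and 3 and 13 for the cytosol. These counts stand beside the shares of all genes on the same scales, which lean to lower as given above. By family, 6 of the 10 tested DNAJB genes rose and 0 fell, 10 of the 26 DNAJC genes rose and 10 fell, and 2 of the 11 tested HSP70 genes rose and 5 fell. On library totals the counts were 4 higher and 1 lower for DNAJB, 8 and 12 for DNAJC and 1 and 7 for HSP70.

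**Figure D2:**
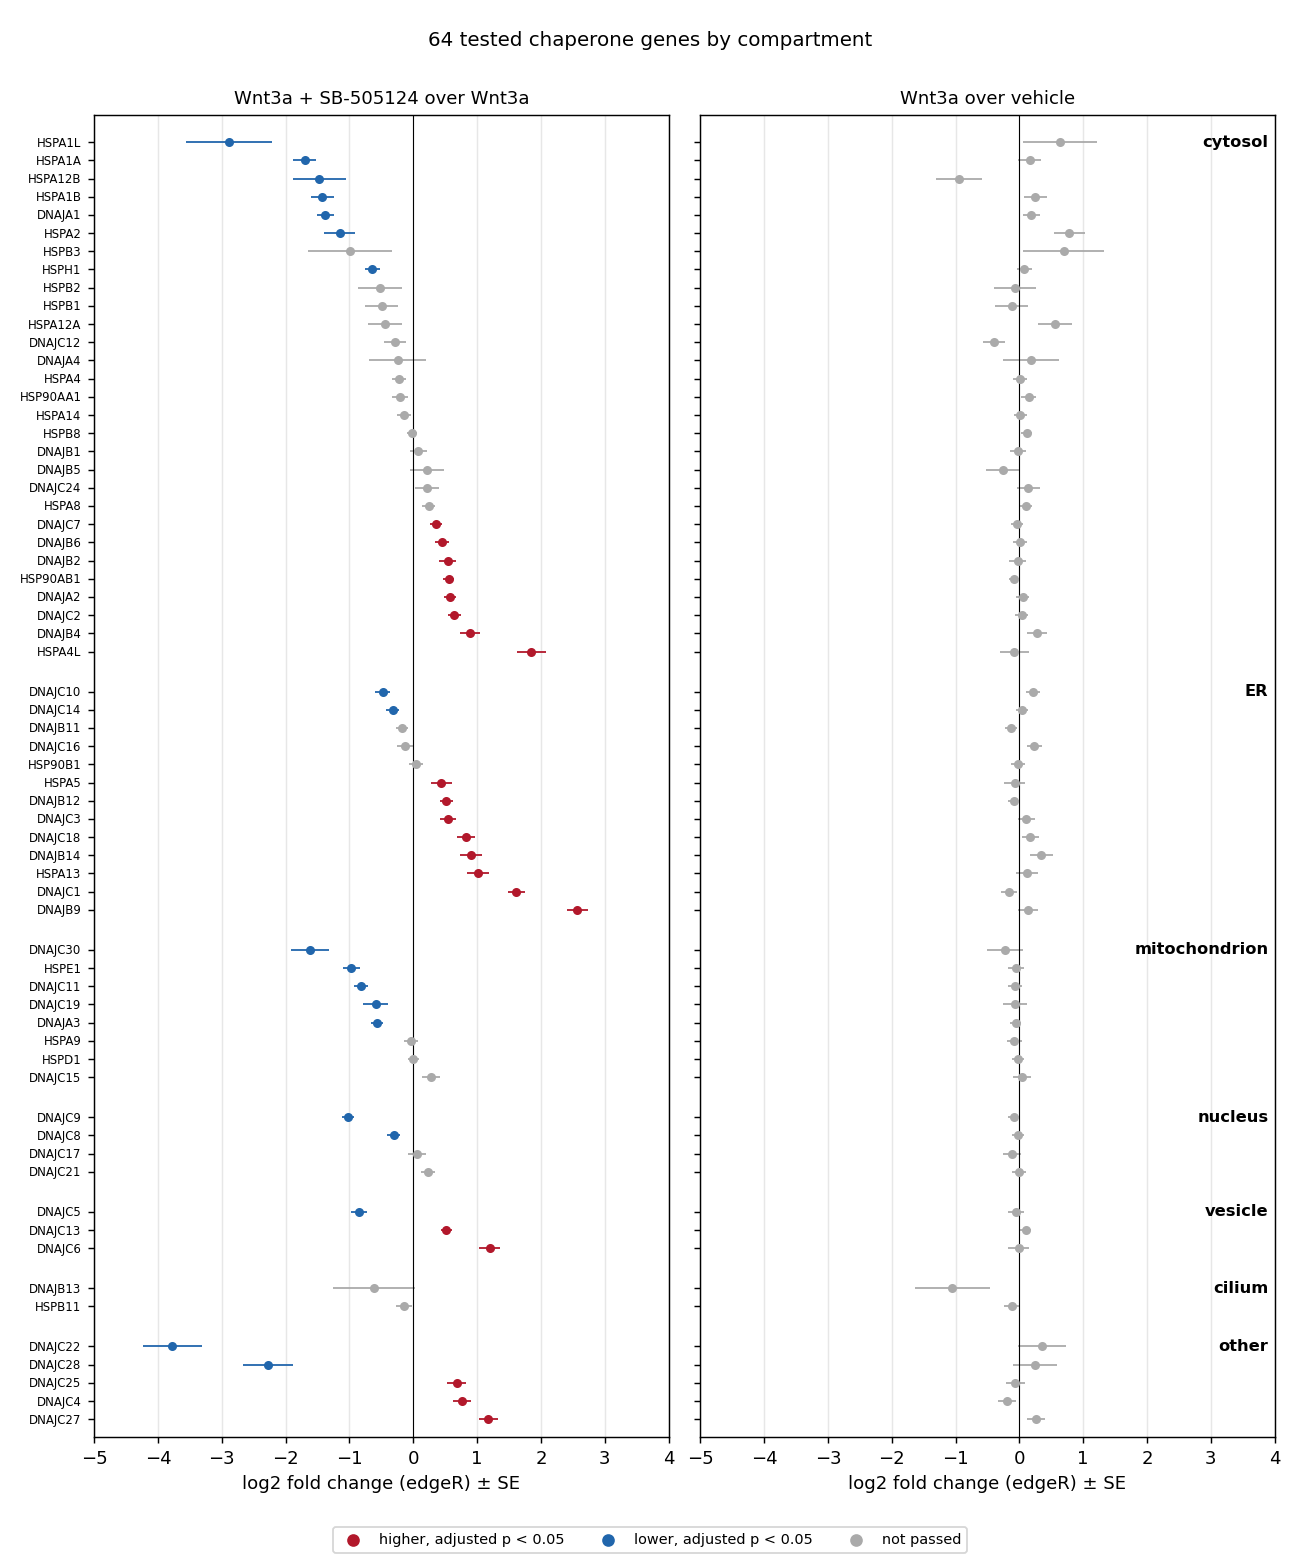
Log2 fold change ± SE of each tested member, by cell compartment, for SB-505124 with Wnt3a over Wnt3a and for Wnt3a over vehicle. Members lie on both sides of 0 in the inhibitor comparison, with DNAJB9 at 2.57 and HSPA1A at -1.70, and 0 members passed the test in the ligand comparison.

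The inducible HSP70 genes and their J protein partner DNAJA1 fell furthest among cytosolic members with at least 1 CPM on average over the 9 libraries. HSPA1A had 26.2, 33.7 and 32.6 CPM in SB-505124 cells, 122, 92.6 and 86.3 CPM in Wnt3a cells and 79.5, 111 and 78.3 CPM in vehicle cells. Its log2 fold change over Wnt3a was -1.70 (SE 0.18, adjusted p in edgeR = 5.47e-05). HSPA1B, which encodes a nearly identical protein, had 17.3, 20.4 and 21.3 CPM in SB-505124 cells, 61.9, 51.5 and 44.9 CPM in Wnt3a cells and 38.4, 56.1 and 38.3 CPM in vehicle cells, at -1.42 (SE 0.18, adjusted p in edgeR = 0.000138). For both genes every SB-505124 library lay below every library of the other groups. The genes share 71.3% of the 50-base windows of HSPA1A transcripts, so the split of reads between them is uncertain. The fall over Wnt3a passed in all 20 alternatives for both genes, among them a fit with their counts summed. DNAJA1, a class A J protein that works with cytosolic HSP70, had 94.9, 137 and 114 CPM in SB-505124 cells, 329, 278 and 291 CPM in Wnt3a cells and 273, 262 and 254 CPM in vehicle cells. It fell by 1.37 on the log2 scale (SE 0.13, edgeR adjusted p = 3e-05), again without overlap. Its paralog DNAJA2 rose, with 108, 106 and 95.8 CPM in SB-505124 cells, 74.7, 62.9 and 70.4 CPM in Wnt3a cells and 71.1, 63.7 and 66 CPM in vehicle cells (0.58, edgeR adjusted p = 0.000781), a call lost on log2(TPM + 1) at 0.21 (limma adjusted p = 0.0632). The ratio of DNAJA1 to DNAJA2 in TPM, chosen after their values were seen, was 1.5 ± 0.354 in SB-505124 cells, 4.94 ± 0.304 in Wnt3a cells and 4.82 ± 0.456 in vehicle cells.

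DNAJB1 and HSPA8 did not pass the test. DNAJB1, the stress-inducible HSP40, had 71.2, 101 and 90.2 CPM in SB-505124 cells, 91.7, 78.4 and 78 CPM in Wnt3a cells and 81.4, 86.9 and 83 CPM in vehicle cells, with overlapping groups and a log2 fold change of 0.08 (SE 0.13, adjusted p in edgeR = 0.617). HSPA8 had 2995, 3749 and 3588 CPM in SB-505124 cells, 3211, 2651 and 2884 CPM in Wnt3a cells and 2685, 2831 and 2660.1 CPM in vehicle cells. Its log2 fold change over Wnt3a was 0.24 (SE 0.11, adjusted p in edgeR = 0.0873), and without SB-505124 replicate 1 it was 0.34 (edgeR adjusted p = 0.0113). HSPA2 fell, with 63.1, 31.2 and 38.7 CPM in SB-505124 cells, 110.0, 78.3 and 107 CPM in Wnt3a cells and 61.6, 49.2 and 60.7 CPM in vehicle cells (-1.15, SE 0.24, edgeR adjusted p = 0.00272). Its SB-505124 and vehicle libraries overlapped. HSPA12A, a divergent HSP70 named after its values were seen, did not pass (-0.44, edgeR adjusted p = 0.18), but was lower without SB-505124 replicate 1, at -0.71 (edgeR adjusted p = 0.0306).

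**Figure D3:**
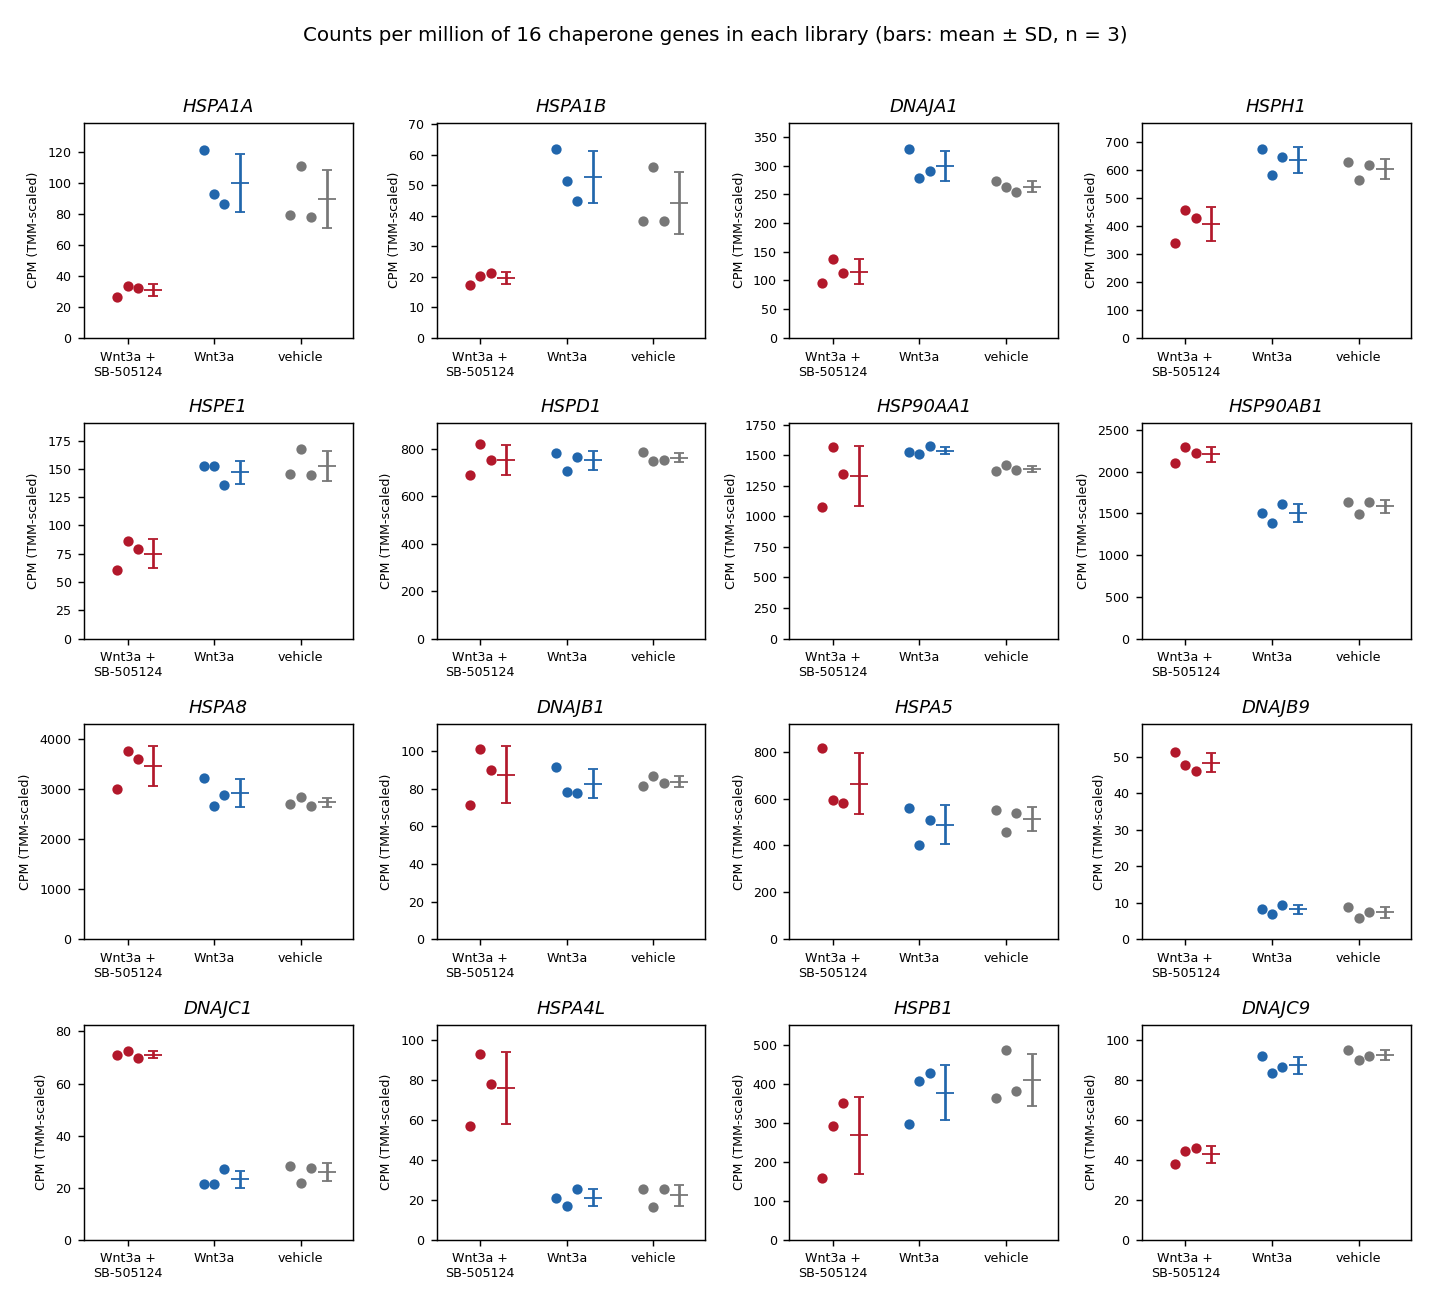
TMM-scaled CPM of 16 members in each library, with 1 panel per gene, SB-505124 cells on the left, then Wnt3a and vehicle cells; each axis starts at 0. HSPA1A, HSPA1B, DNAJA1, HSPH1, HSPE1 and DNAJC9 lie lower in all 3 SB-505124 libraries than in all libraries of both other groups. HSP90AB1, HSPA5, DNAJB9, DNAJC1 and HSPA4L lie higher in the same way.

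The promoters of members that fell and of one that did not pass are set out because heat shock factor binds repeats of GAA and its reverse TTC in alternation. Each is 250 bases before to 50 after the start of a gene in RefSeq (GRCh38.p14), 5′ to 3′ on the gene's strand. Capitals mark every GAANNTTC or TTCNNGAA, the pattern of 2 neighbouring units, which covers both strands. The windows are HSPA1A at chr6:31815293-31815592 (+), DNAJA1 at chr9:33025023-33025322 (+) and HSPA8 at chr11:123062087-123062386 (-).
HSPA1A: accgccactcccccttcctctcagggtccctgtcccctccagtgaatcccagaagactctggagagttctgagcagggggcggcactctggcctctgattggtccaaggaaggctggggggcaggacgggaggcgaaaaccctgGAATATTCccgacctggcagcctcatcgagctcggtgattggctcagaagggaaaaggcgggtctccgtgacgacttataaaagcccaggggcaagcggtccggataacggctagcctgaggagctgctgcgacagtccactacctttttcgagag
DNAJA1: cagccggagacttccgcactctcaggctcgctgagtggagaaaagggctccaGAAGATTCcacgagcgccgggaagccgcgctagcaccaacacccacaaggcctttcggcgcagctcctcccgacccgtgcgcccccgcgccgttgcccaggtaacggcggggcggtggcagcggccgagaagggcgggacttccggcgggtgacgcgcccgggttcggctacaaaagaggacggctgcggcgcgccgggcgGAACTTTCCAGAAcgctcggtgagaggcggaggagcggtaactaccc
HSPA8: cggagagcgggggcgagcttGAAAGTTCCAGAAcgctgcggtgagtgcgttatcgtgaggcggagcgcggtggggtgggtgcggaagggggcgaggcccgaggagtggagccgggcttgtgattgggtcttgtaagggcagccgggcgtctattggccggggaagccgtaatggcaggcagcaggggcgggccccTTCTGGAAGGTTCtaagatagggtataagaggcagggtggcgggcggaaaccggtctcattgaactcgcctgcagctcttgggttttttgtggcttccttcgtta
The HSPA1A window holds 1 such match, the DNAJA1 window 3 and the HSPA8 window 4. Of 82 RefSeq windows for 63 members, 23 (28.0%) held the pattern, against 4737 of 35116 windows (13.5%) over all genes. The longer pattern of 3 units, GAANNTTCNNGAA or TTCNNGAANNTTC, which contains the shorter one, was in 7 member windows (8.54%) and in 172 windows (0.490%) over all genes. The 7 genes with it were DNAJA1, DNAJB6, HSP90AA1, HSP90AB1, HSPA6, HSPA8 and HSPD1. Among these, in SB-505124 over Wnt3a, DNAJA1 fell, HSP90AB1 and DNAJB6 rose, HSP90AA1, HSPA8 and HSPD1 did not pass and HSPA6 was not tested. Of the 22 genes with the 2-unit pattern, 19 were tested, with 5 higher and 4 lower. Of the 41 genes whose windows lack it, 38 were tested, with 15 higher and 13 lower. The share called over all genes was 50.4%, and the difference between both sets of members was not tested. A match describes letters and is no evidence of binding, and a window without one says only that these letters are not in it.

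Of the 3 HSP90 genes 1 rose and 0 fell, and of the 3 HSP110 genes 1 rose and 1 fell. HSP90AB1 had 2109, 2293 and 2220.0 CPM in SB-505124 cells, 1507, 1389 and 1612 CPM in Wnt3a cells and 1632, 1495 and 1632 CPM in vehicle cells, higher in every SB-505124 library (0.55, SE 0.088, edgeR adjusted p = 0.000556). That call was lost on log2(TPM + 1), at 0.20 (limma adjusted p = 0.0736). HSP90AA1 had 1075, 1567 and 1348 CPM in SB-505124 cells, 1526, 1514 and 1573 CPM in Wnt3a cells and 1372, 1419 and 1378 CPM in vehicle cells. The groups overlapped, and its log2 fold change was -0.21 (SE 0.12, adjusted p in edgeR = 0.178). It passed as lower on library totals, at -0.46 (edgeR adjusted p = 0.0062), and without SB-505124 replicate 2, at -0.34 (0.0377). HSP90AA1 was also lower on log2(TPM + 1), at -0.54 (limma adjusted p = 0.0187). The TPM ratio of HSP90AA1 to HSP90AB1, chosen after the values were seen, was 0.546 ± 0.117 in SB-505124 cells, 0.898 ± 0.0741 in Wnt3a cells and 0.786 ± 0.0786 in vehicle cells. Among the HSP110 exchange factors, HSPA4L had 57.1, 92.9 and 77.8 CPM in SB-505124 cells, 20.7, 17 and 25.4 CPM in Wnt3a cells and 25.3, 16.2 and 25.3 CPM in vehicle cells. It rose, at 1.85 (SE 0.23, adjusted p in edgeR = 0.000135), without overlap. HSPH1, also called HSP105, had 338, 455 and 426 CPM in SB-505124 cells, 673, 581 and 646 CPM in Wnt3a cells and 628, 563 and 615 CPM in vehicle cells. It fell, at -0.64 (SE 0.12, adjusted p in edgeR = 0.00142), also without overlap. HSPA4, a close paralog of HSPA4L, had 226, 262 and 240.2 CPM in SB-505124 cells, 290.0, 255 and 308 CPM in Wnt3a cells and 301, 251 and 300.3 CPM in vehicle cells, with overlapping groups (-0.23, SE 0.11, edgeR adjusted p = 0.105). HSPA4 was called lower on library totals, at -0.48, and among genes with at least 1 CPM in 3 libraries, at -0.27 (edgeR adjusted p = 0.00164 and 0.0445), but stood at 0.25 with the effective length offset (0.177).

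Of the mitochondrial chaperonin pair, HSPE1 fell and HSPD1 did not pass. HSPE1, the HSP10 lid of the folding chamber, had 60.7, 85.8 and 78.7 CPM in SB-505124 cells, 153, 153 and 135 CPM in Wnt3a cells and 145, 168 and 144 CPM in vehicle cells. It fell, at -0.97 (SE 0.13, adjusted p in edgeR = 0.000219), with each SB-505124 library below all others. HSPD1, the HSP60 chamber itself, had 692, 819.9 and 752 CPM in SB-505124 cells, 784, 708 and 768 CPM in Wnt3a cells and 786, 750.3 and 755 CPM in vehicle cells. Its groups overlapped and its log2 fold change was 0.00 (SE 0.089, adjusted p in edgeR = 0.984). On library totals HSPD1 was lower, at -0.25 (edgeR adjusted p = 0.0199), as on log2(TPM + 1), at -0.36 (limma adjusted p = 0.00841). The ratio of HSPE1 to HSPD1 in CPM, chosen after the values were seen, was 0.0877, 0.105 and 0.105 in SB-505124 cells, 0.195, 0.216 and 0.176 in Wnt3a cells and 0.184, 0.223 and 0.191 in vehicle cells. This within-library ratio does not depend on the scaling of library size.

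HSPD1 (chr2:197486581-197516737, minus strand, hg38) and HSPE1 (chr2:197499994-197503457, plus strand) lie on opposite strands and overlap. HSPE1 also shares its strand with the read-through gene HSPE1-MOB4, and since the strand setting of the counting is not given in the sources used here, reads in the overlap are uncertain. The RefSeq windows of the pair are shown for this shared region, HSPD1 at chr2:197499791-197500090 (-) and HSPE1 at chr2:197500129-197500428 (+), with the same marking in capitals.
HSPD1: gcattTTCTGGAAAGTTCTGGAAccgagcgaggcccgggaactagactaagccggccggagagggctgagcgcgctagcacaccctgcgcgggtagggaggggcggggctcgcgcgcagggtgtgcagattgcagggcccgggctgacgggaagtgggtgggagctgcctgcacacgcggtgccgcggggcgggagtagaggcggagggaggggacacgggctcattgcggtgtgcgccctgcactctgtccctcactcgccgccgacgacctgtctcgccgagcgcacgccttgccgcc
HSPE1: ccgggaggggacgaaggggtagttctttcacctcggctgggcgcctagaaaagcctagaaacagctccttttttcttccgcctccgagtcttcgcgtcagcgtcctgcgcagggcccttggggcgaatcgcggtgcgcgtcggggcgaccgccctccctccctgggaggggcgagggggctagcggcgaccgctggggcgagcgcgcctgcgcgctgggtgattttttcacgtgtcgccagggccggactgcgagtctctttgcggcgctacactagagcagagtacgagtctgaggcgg
The HSPD1 window holds 3 matches of the 2-unit pattern and the HSPE1 window 0. These windows share 0 bases, while another HSPD1 start in RefSeq has a window that overlaps that of HSPE1 by 204 bases. The HSPD1 matches, the first at -245 from the start shown, lie at the end of its window that faces the HSPE1 window. They are also inside the HSPE1 gene span given above. The 0 for HSPE1 therefore depends on where its window was cut, and no promoter difference is read from it.

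Other mitochondrial members were lower or did not pass. HSPA9, the mitochondrial HSP70 known as mortalin, had 311, 385 and 357 CPM in SB-505124 cells, 361, 326 and 394 CPM in Wnt3a cells and 403, 338 and 401 CPM in vehicle cells, with overlap (-0.04, SE 0.11, edgeR adjusted p = 0.805). On library totals HSPA9 was lower, at -0.29 (edgeR adjusted p = 0.0285), as on log2(TPM + 1), at -0.29 (limma adjusted p = 0.0276). DNAJC11, associated with the complex that shapes the cristae, had 35.2, 46.7 and 44.5 CPM in SB-505124 cells, 73.5, 74.3 and 74.9 CPM in Wnt3a cells and 79.3, 75 and 79.7 CPM in vehicle cells (-0.82, SE 0.11, edgeR adjusted p = 0.000196). DNAJC30, which helps maintain respiratory complex I, had 1.7, 3.98 and 4.5 CPM in SB-505124 cells, 10.1, 9.67 and 11.7 CPM in Wnt3a cells and 13.4, 10.5 and 12.8 CPM in vehicle cells (-1.62, SE 0.30, edgeR adjusted p = 0.00134). In DNAJC11 and DNAJC30 every SB-505124 library was below every other library; DNAJC30 overlaps BUD23 on the opposite strand. DNAJA3, the mitochondrial J protein TID1, fell (-0.57, edgeR adjusted p = 0.000591), with 48.1, 50.4 and 48.5 CPM in SB-505124 cells, 78.7, 70.6 and 68.7 CPM in Wnt3a cells and 70.9, 81 and 74.9 CPM in vehicle cells. DNAJC19, a J protein of the inner membrane import motor, passed at -0.59 (edgeR adjusted p = 0.0273), a call lost in 5 of 19 alternatives, among them without Wnt3a replicates 1 or 3 or SB-505124 replicates 2 or 3. DNAJC15 did not pass (0.28, edgeR adjusted p = 0.129).

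In the ER, DNAJB9 had the largest rise of all tested members with at least 1 CPM on average. This gene (chr7:108569568-108574850, plus strand, hg38) encodes ERdj4, a J protein and target of the unfolded protein response. It had 51.4, 47.7 and 46.2 CPM in SB-505124 cells, 8.23, 6.94 and 9.26 CPM in Wnt3a cells and 8.91, 5.89 and 7.47 CPM in vehicle cells. The log2 fold change was 2.57 (SE 0.17, adjusted p in edgeR = 4.56e-06), and all SB-505124 libraries lay above all others. DNAJB9 overlaps PNPLA8 and THAP5 on the opposite strand, and its reads are uncertain to that extent. DNAJC1, ERdj1 of the ER membrane, had 71, 72.5 and 69.8 CPM in SB-505124 cells, 21.3, 21.3 and 27.1 CPM in Wnt3a cells and 28.3, 21.9 and 27.6 CPM in vehicle cells (1.62, SE 0.13, edgeR adjusted p = 1.36e-05). It too was without overlap.

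HSPA5 encodes BiP, the HSP70 of the ER lumen and the best known marker of the unfolded protein response. It had 815, 594 and 582 CPM in SB-505124 cells, 560.3, 400.3 and 507 CPM in Wnt3a cells and 550.2, 456 and 538 CPM in vehicle cells. SB-505124 replicate 1 was the highest of all 9 libraries, while the other 2 lay close to Wnt3a replicate 1. All 3 lay above every Wnt3a and vehicle library. The log2 fold change of 0.44 (SE 0.16, adjusted p in edgeR = 0.0436) was lost in 10 of 19 alternatives. Without SB-505124 replicate 1 it was 0.27 (edgeR adjusted p = 0.132), without Wnt3a replicate 2 0.31 (0.152), without Wnt3a replicate 3 0.47 (0.0673), and without vehicle replicates 1 or 3 0.43 or 0.44 (0.0608 or 0.0598). HSP90B1 had 1035, 1040.2 and 916 CPM in SB-505124 cells, 1052, 868 and 976 CPM in Wnt3a cells and 1077, 895 and 967 CPM in vehicle cells, with overlap (0.05, SE 0.11, edgeR adjusted p = 0.735). DNAJB11, the soluble BiP partner ERdj3, did not pass (-0.18, edgeR adjusted p = 0.138). It was lower on library totals, at -0.43 (edgeR adjusted p = 0.00206), on log2(TPM + 1), at -0.49 (limma adjusted p = 0.00189), and against vehicle, at -0.30 (edgeR adjusted p = 0.0201). The call against vehicle was lost without vehicle replicates 1 or 3 and without SB-505124 replicate 3.

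The promoters of HSPA5 and DNAJB9 are set side by side, since HSPA5 holds the ER stress element. Capitals mark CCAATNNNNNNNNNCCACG or its reverse complement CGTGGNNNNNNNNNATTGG. The windows are HSPA5 at chr9:125241294-125241593 (-) and DNAJB9 at chr7:108569624-108569923 (+), from the same RefSeq table.
HSPA5: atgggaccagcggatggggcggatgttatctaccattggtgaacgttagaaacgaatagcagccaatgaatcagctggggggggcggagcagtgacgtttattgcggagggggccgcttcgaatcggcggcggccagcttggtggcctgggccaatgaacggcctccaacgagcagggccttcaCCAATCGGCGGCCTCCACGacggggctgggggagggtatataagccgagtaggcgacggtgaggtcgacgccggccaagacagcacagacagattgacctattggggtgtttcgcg
DNAJB9: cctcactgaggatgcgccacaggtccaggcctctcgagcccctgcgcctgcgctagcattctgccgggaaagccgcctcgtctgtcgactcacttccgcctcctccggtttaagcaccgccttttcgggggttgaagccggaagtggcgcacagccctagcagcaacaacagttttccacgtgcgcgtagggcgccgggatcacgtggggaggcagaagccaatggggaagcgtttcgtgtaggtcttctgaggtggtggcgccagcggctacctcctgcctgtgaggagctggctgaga
The full element was in 2 of the 82 member windows (2.44%), those of HSPA5 and HSP90B1, against 27 of 35116 (0.0769%) over all genes. The DNAJB9 window holds no match.

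Among the other membrane J proteins of the ER, DNAJB14, DNAJC18 and DNAJB12 rose. DNAJB14 had 50.1, 53.9 and 49.7 CPM in SB-505124 cells, 24.4, 25.2 and 32.5 CPM in Wnt3a cells and 25.6, 15.8 and 23.3 CPM in vehicle cells (0.90, SE 0.18, edgeR adjusted p = 0.00195). DNAJC18 had 31.3, 24.2 and 22.9 CPM in SB-505124 cells, 15.2, 13.5 and 15.6 CPM in Wnt3a cells and 13.2, 13.3 and 12.7 CPM in vehicle cells (0.82, SE 0.14, edgeR adjusted p = 0.000754). DNAJC18 overlaps the gene AC142391.1 on its own strand, and its reads are uncertain to that extent. DNAJB12, the closest relative of DNAJB14, rose less (0.52, edgeR adjusted p = 0.00189), and on log2(TPM + 1) its call was lost, at 0.13 (limma adjusted p = 0.345). HSPA13, a microsomal HSP70-like ATPase, had 71.2, 87.5 and 71.6 CPM in SB-505124 cells, 37, 31.1 and 45.6 CPM in Wnt3a cells and 38.8, 27.5 and 38.6 CPM in vehicle cells (1.02, SE 0.17, edgeR adjusted p = 0.000887). In DNAJB14, DNAJC18 and HSPA13 every SB-505124 library was above every other one. DNAJC3, the BiP co-chaperone P58IPK, had 47, 44.6 and 39.3 CPM in SB-505124 cells, 31.1, 26.8 and 31.7 CPM in Wnt3a cells and 31.2, 23.8 and 28 CPM in vehicle cells (0.55, edgeR adjusted p = 0.00519); on library totals it did not pass, at 0.30 (edgeR adjusted p = 0.0565). DNAJC10, the disulfide reductase ERdj5, fell, with 86.8, 90.9 and 78.4 CPM in SB-505124 cells, 124, 111 and 122 CPM in Wnt3a cells and 112, 86.1 and 109 CPM in vehicle cells (-0.48, SE 0.11, edgeR adjusted p = 0.00629). DNAJC14 also passed as lower (-0.32, edgeR adjusted p = 0.0164), a call lost without Wnt3a replicates 1 or 2 and without SB-505124 replicates 2 or 3, while DNAJC16 did not pass (-0.13, edgeR adjusted p = 0.392). DNAJC14 overlaps the gene AC023055.1 on its own strand.

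In the nucleus, DNAJC9, a chaperone of histones H3 and H4 linked to replication, had 37.8, 44.6 and 45.9 CPM in SB-505124 cells, 91.8, 83.5 and 86.2 CPM in Wnt3a cells and 95, 90 and 91.8 CPM in vehicle cells. It fell, at -1.03 (SE 0.10, adjusted p in edgeR = 2.62e-05), without overlap. It overlaps an antisense gene and FAM149B1 on the opposite strand and MRPS16 on its own. DNAJC8, a spliceosome-associated J protein, passed at -0.31 (edgeR adjusted p = 0.0255) and lost the call without Wnt3a replicates 1 or 2 or SB-505124 replicates 2 or 3. DNAJC17 and DNAJC21 did not pass (0.06 and 0.23, edgeR adjusted p = 0.758 and 0.119).

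The J proteins of vesicle traffic divided. DNAJC5, the cysteine string protein of synaptic vesicles, had 33.9, 44.6 and 47.9 CPM in SB-505124 cells, 76.8, 71.1 and 80.5 CPM in Wnt3a cells and 75.4, 80.2 and 81.3 CPM in vehicle cells and fell (-0.85, SE 0.13, edgeR adjusted p = 0.000363). DNAJC6, the neuronal auxilin that uncoats clathrin vesicles together with HSPA8, had 35.4, 46.9 and 42.9 CPM in SB-505124 cells, 16.6, 16.7 and 21.3 CPM in Wnt3a cells and 19.4, 14.7 and 21.1 CPM in vehicle cells and rose (1.196, SE 0.17, edgeR adjusted p = 0.000278). DNAJC13, the endosomal protein RME-8, rose (0.52, edgeR adjusted p = 0.00059). For DNAJC5 and DNAJC6 the SB-505124 libraries did not overlap the others.

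Several less abundant J protein genes changed as well. DNAJC22, a membrane J protein, had 0.0759, 0.335 and 0.0959 CPM in SB-505124 cells, 2.58, 2.3 and 2.37 CPM in Wnt3a cells and 2.05, 1.99 and 1.64 CPM in vehicle cells. Its log2 fold change of -3.78 (SE 0.46, adjusted p in edgeR = 0.000116) was the largest fall among members with at least 1 CPM on average. DNAJC27, a RAB-like GTPase with a J domain, had 17.2, 13.4 and 14.2 CPM in SB-505124 cells, 6.84, 6.42 and 6.53 CPM in Wnt3a cells and 5.59, 5.12 and 5.85 CPM in vehicle cells (1.18, SE 0.15, edgeR adjusted p = 0.00014). DNAJC4 had 19.9, 24.7 and 25.2 CPM in SB-505124 cells, 11.9, 13.8 and 15.6 CPM in Wnt3a cells and 15.2, 16.4 and 15.5 CPM in vehicle cells (0.76, SE 0.14, edgeR adjusted p = 0.00126). In DNAJC22 every SB-505124 library was below, and in DNAJC27 and DNAJC4 above, every other library. DNAJC25 rose as well (0.68, edgeR adjusted p = 0.0038), a call lost on log2(TPM + 1), at 0.31 (limma adjusted p = 0.0862). On their own strands DNAJC4 overlaps NUDT22 and DNAJC25 overlaps DNAJC25-GNG10, so their reads are uncertain to that extent. HSPA1L, HSPA12B and DNAJC28, named here after their values were seen, fell at means under 1 CPM over the 9 libraries, with log2 fold changes of -2.88, -1.47 and -2.27 (edgeR adjusted p = 0.00537, 0.0133 and 0.000866).

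Of the class B and ribosome-linked J proteins of the cytosol, DNAJB4 had 52.2, 48.9 and 45.1 CPM in SB-505124 cells, 32.9, 20.3 and 25.8 CPM in Wnt3a cells and 22.6, 21 and 21.8 CPM in vehicle cells (0.89, SE 0.16, edgeR adjusted p = 0.00108). DNAJC2, part of the ribosome-associated complex, rose (0.65, edgeR adjusted p = 0.000408), as did DNAJB2 (0.54, edgeR adjusted p = 0.00835), DNAJB6 (0.46, edgeR adjusted p = 0.00553) and DNAJC7 (0.35, edgeR adjusted p = 0.0105). Of these 5, DNAJB2, DNAJB6 and DNAJC7 were not called on library totals, with edgeR adjusted p values of 0.138, 0.0989 and 0.319. DNAJB6, a suppressor of polyglutamine aggregation, was at -0.000752 on log2(TPM + 1). The DNAJB4 libraries of SB-505124 cells lay above all others.

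In SB-505124 over Wnt3a, none of the 4 tested small heat shock protein genes passed in edgeR. At an unadjusted p under 0.05 there were 0, and DESeq2 called 0, whereas 2 were lower on library totals and 3 on log2(TPM + 1). HSPB1 had 159, 294 and 352 CPM in SB-505124 cells, 299, 409 and 428 CPM in Wnt3a cells and 364, 487 and 382 CPM in vehicle cells. Replicate 1 was the lowest SB-505124 library and also the lowest of all 9, and the log2 fold change was -0.50 (SE 0.26, adjusted p in edgeR = 0.132). It passed in 7 of 19 alternatives, among them without SB-505124 replicate 3, at -0.74 (edgeR adjusted p = 0.0485), and without SB-505124 replicate 1 it was -0.22 (0.316). HSPB8, the partner of BAG3 in selective autophagy, had 219.8, 209 and 213 CPM in SB-505124 cells, 230.1, 208 and 210.4 CPM in Wnt3a cells and 205, 206 and 189 CPM in vehicle cells (-0.02, SE 0.081, edgeR adjusted p = 0.884). The 8 members that were not tested were HSPB6, HSPB7, HSPB9, DNAJB3, DNAJB7, DNAJB8, HSPA6 and HSPA7. HSPA6, which is expressed almost only under strong stress, was at 0 in 8 libraries and at 0.114 CPM in SB-505124 replicate 1.

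SB-505124 with Wnt3a against vehicle shares its libraries with the other comparisons and gives no support independent of them. Here 21 members rose and 20 fell of 64, or 64.1%, against 49.7% over all genes (25.0% higher and 24.8% lower). Libraries did not overlap for 24 members higher and 23 lower, against 58.4% of all genes. On library totals the split was 15 higher and 28 lower, against 17.1% higher and 33.8% lower over all genes. HSPA1A, DNAJA1 and HSPE1 had -1.54, -1.19 and -1.02 (edgeR adjusted p = 9.21e-05, 6.48e-05 and 0.000163). DNAJB9, DNAJC1 and HSPA4L had 2.71, 1.46 and 1.77 (edgeR adjusted p = 3.57e-06, 2.07e-05 and 0.000171). HSPA8 passed here as higher (0.34, edgeR adjusted p = 0.0248) and lost the call in 8 of 19 alternatives, among them without vehicle replicates 1 or 3 or SB-505124 replicates 2 or 3. HSPA2, HSPA5 and HSPB1 did not pass (-0.37, 0.37 and -0.62, edgeR adjusted p = 0.224, 0.0837 and 0.071). HSPB1 passed as lower in 8 of 19 alternatives, among them DESeq2, at -0.61 (DESeq2 adjusted p = 0.038), and library totals, at -0.85 (edgeR adjusted p = 0.0188). Without SB-505124 replicate 1, HSPA2 was lower, at -0.70 (edgeR adjusted p = 0.00883). DNAJC12, a co-chaperone of aromatic amino acid hydroxylases, and DNAJB13, a cilium protein, passed only in this comparison among the 3, at -0.68 and -1.66 (edgeR adjusted p = 0.0088 and 0.0495), and whether the comparisons differ for them was not tested. With the effective length offset DNAJC12 did not pass (-0.60, edgeR adjusted p = 0.0597). The DNAJB13 call was lost in 10 alternatives, 7 of them leaving out 1 library (all but Wnt3a replicates 1 and 3), and without SB-505124 replicate 1 it was -1.39 (edgeR adjusted p = 0.127).

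The partners of the members are described from lists by known function, and their counts with TMM stand beside 24.5% higher and 25.9% lower over all genes, those on library totals beside 15.8% and 35.9%. In SB-505124 over Wnt3a, 2 of 5 tested genes of heat shock factors and their binding proteins rose and 0 fell, HSF1 at 0.64 and HSF2 at 0.71 (edgeR adjusted p = 0.000865 and 0.000713). Of 15 other heat shock response genes 7 rose and 2 fell, with ATF3, a stress transcription factor, at 3.85, ZFAND2A at 1.11 and the collagen chaperone SERPINH1 at -0.95 (edgeR adjusted p = 3.35e-05, 0.000859 and 0.00196). Among 17 co-chaperones of HSP90 5 rose and 2 fell, with SUGT1 at 0.89 and FKBP5 at -2.07 (edgeR adjusted p = 4.64e-05 and 3.62e-05). The 12 nucleotide exchange and accessory factors of HSP70 stood at 6 higher and 2 lower, with BAG6 at 0.97 and BAG5 at -1.43 (edgeR adjusted p = 0.000171 and 2.72e-05). On library totals the counts were 2 higher and 1 lower for the heat shock factors, 5 and 5 for the other response genes, 3 and 7 for the HSP90 co-chaperones and 3 and 4 for the HSP70 factors.

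Subunits of the cytosolic chaperonin TRiC and of prefoldin stood at 9 higher and 1 lower of 14, with a median of 0.40, CCT8 at 0.72 and PFDN4 at 1.04 (edgeR adjusted p = 7.54e-05 and 0.000348). On library totals the counts were 4 and 3. The 10 other mitochondrial chaperones and proteases stood at 7 higher and 0 lower, median 0.41, with the protease subunits CLPX at 0.69 and CLPP at 0.62 (edgeR adjusted p = 9.2e-05 and 0.00291), and on library totals at 3 and 2. The 14 other ER folding genes stood at 2 higher and 5 lower, median -0.01 (1 and 7 on library totals), with the oxidase ERO1B at 1.27 and the stress-induced SDF2L1 and CRELD2 at -1.28 and -0.61 (edgeR adjusted p = 0.00123, 0.0014 and 0.0063). CRYAB, the 1 tested gene of the other small heat shock proteins, fell (-0.75, edgeR adjusted p = 0.0273).

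Effective length is the transcript length that RSEM weights by the isoforms it estimates. It differed for 4 of the 64 tested members by at least 1.25-fold without overlap between SB-505124 and Wnt3a libraries. All 4 were shorter, against 4.21% of all tested genes shorter and 0.85% longer by the same rule. No lean of the members is read from a count of 4. DNAJC18 had 946, 965 and 1006 bases in SB-505124 cells, 1804, 2738 and 1830.0 bases in Wnt3a cells and 1956, 2205 and 1721 bases in vehicle cells. For DNAJC15 the lengths were 2863, 2914 and 2669 bases in SB-505124 cells, 4217, 3928 and 3738 bases in Wnt3a cells and 4091, 4072 and 3585 bases in vehicle cells. HSPA4 and DNAJC21 had ratios of SB-505124 to Wnt3a of 0.716 and 0.8. With an effective length offset in the count model, DNAJC15 passed at 0.76 and DNAJC21 at 0.55 (edgeR adjusted p = 0.0041 and 0.00418). On the same offset DNAJC18 stood at 1.89 (edgeR adjusted p = 0.000108), against 0.82 without it, and HSPA4 at 0.25, on the other side of 0 from its -0.23. Which isoforms moved was not tested, nor was any part of the overlapping gene AC142391.1 in the DNAJC18 lengths.

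**Figure D4:**
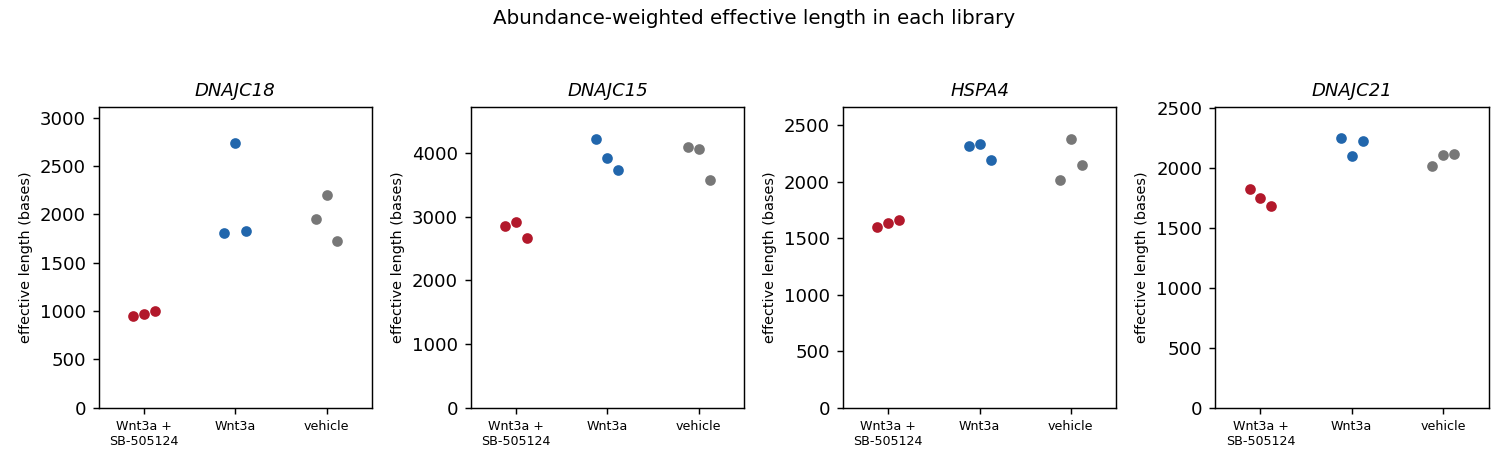
Effective length in bases of DNAJC18, DNAJC15, HSPA4 and DNAJC21 in each library, with SB-505124 cells on the left, then Wnt3a and vehicle cells. In each panel the 3 SB-505124 libraries lie below all 6 others, with a ratio to Wnt3a cells of 0.458 for DNAJC18.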

How the data were processed

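PolyA RNA of TC32 cells was sequenced in 9 libraries, made stranded per the labels' protocols. Per the submitters' processing notes, the authors worked on hg38 with RSEM 1.2.31, STAR 2.5.2a, Trimmomatic 0.36 and CASAVA 1.8.2. For the strand setting and annotation release, nothing is given in the sources used here. The deposited tables hold, per the file headers, RSEM expected counts, TPM, FPKM and effective length per gene; FPKM was not used. The 58278 rows gave 58233 gene IDs after 45 second pseudoautosomal rows were added to their partners. Coordinates are from GENCODE 29 (hg38), in which all 72 member IDs were found.

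Expected counts were rounded, filtered with filterByExpr and scaled by TMM. One model of 3 groups was fitted to 9 libraries with the quasi-likelihood F test of edgeR 4.0.16 (R 4.3.3; common coefficient of variation 21.5%), 2-sided, with Benjamini-Hochberg adjustment over 17880 genes. The SE is the log2 fold change over the square root of F. CPM are TMM-scaled per 1e+06 counts. Errors are SD of 3 libraries unless called SE. DESeq2 1.42.0, limma 3.58.1, other scalings and filters, a replicate block and each library left out were alternatives. For HSPA1A and HSPA1B a fit with their counts summed was a further alternative. The fit was also run on simulated counts with less spread and far fewer changed genes than these data. That run does not show how the test behaves here. Replicate libraries differed beyond sampling noise.

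Members and lists were chosen with earlier results of these data known. Named were a panel of 15 members and, per comparison, up to 10 called members each way with at least 1 CPM on average; of each list, up to 4 genes with the smallest adjusted p. Single values of some genes of the lists and checks are not reported here. Other members named were chosen after their values were seen. Compartments follow textbook location. RefSeq windows run from 250 bases before to 50 after a start.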

Additional observations from a re-analysis of the deposited data

Results flagged for a closer look

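Effective length, a column outside the comparisons of expression, differed by at least 1.25-fold between SB-505124 and Wnt3a cells for 4 of the 64 tested members. The ratio of SB-505124 to Wnt3a cells was 0.458 for DNAJC18, 0.711 for DNAJC15, 0.716 for HSPA4 and 0.8 for DNAJC21, with every SB-505124 library shorter than every Wnt3a library. HSPA4 had effective lengths of 1605, 1635 and 1662 bases in SB-505124 cells, 2314, 2334 and 2195 bases in Wnt3a cells and 2019.5, 2382 and 2154 bases in vehicle cells. DNAJC21 had 1827, 1748 and 1684 bases in SB-505124 cells, 2253, 2099.5 and 2225 bases in Wnt3a cells and 2021, 2108 and 2121 bases in vehicle cells. The same rule picked out 4.21% of all tested genes as shorter, so no lean of the members is read from these 4. The cause was not tested.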

How the results depend on the processing

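Of 1210 values for the 64 tested members in SB-505124 over Wnt3a under the alternatives, 1127 stayed on their side of the threshold, 41 lost a call, 37 gained one and 5 reversed with a call on at least one side. Of the 1127, 40 values of 13 uncalled members had the other sign. The reversals were HSPD1, at -0.25 on library totals, -0.36 on log2(TPM + 1) and -0.37 on log2(TPM + 0.1), and DNAJB6, at -0.000752 and -0.000845 on the same TPM scales. In SB-505124 over vehicle, 1115 of 1211 stayed on their side (33 uncalled ones with the other sign), 56 lost a call, 40 gained one and 0 reversed. In Wnt3a over vehicle 1211 of 1212 stayed uncalled, 104 of them with the other sign. The count of called members there was 1 (HSPA2) with all genes of at least 1 count and 0 otherwise, also with each library left out. Over all genes that comparison gave 75 calls, against 299 with DESeq2, 259 with genes of at least 1 count and 20 to 140 with 1 library left out.

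With 1 library left out, called members numbered 37 to 41 for SB-505124 over Wnt3a and 35 to 41 for SB-505124 over vehicle. With the replicate block, called members numbered 41 (21 higher, 20 lower) and 43 (22 higher, 21 lower) in those comparisons and 0 for Wnt3a over vehicle. The numbers do not pair the libraries by the labels, and deviations of same-numbered libraries correlated at -0.18 to 0.42, with 4 of 9 pairs over 0.1.

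The common coefficient of variation of 21.5% with 3 libraries a group limits the precision, and members under 1 CPM rest on few reads. HSPA1A and HSPA1B, and genes that overlap others, share reads.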
